A study of Mus musculus with 6 samples.

Results

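The genes described here encode the signalling part of the T cell receptor and the proteins that sit beside it. They were taken by name from the deposited table of counts per gene, 10 of its 26814 gene symbols: the signal chains Cd3d, Cd3e, Cd3g and Cd247, the coreceptors Cd4 and Cd8a, the kinase Lck, the adaptor Trat1, and the surface proteins Thy1 and Ptprc. The study sequenced mRNA from top lip tissue of adult female C57BL/6J mice, 3 wild type (WT) and 3 homozygous for the Gtf2ird1 tm1Hrd allele (KO), with 1 library per mouse. The tissue was whole lip, not sorted cells, so in all results below fewer T cells and less RNA per T cell cannot be told apart.

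A T cell reads antigen with a pair of receptor chains that have almost no cytoplasmic part of their own. The signal is carried into the cell by the CD3 dimers and the zeta chain, whose tyrosine motifs are phosphorylated by Lck, a kinase that CD4 and CD8 bring to the receptor and that the phosphatase CD45 keeps ready for use. Mouse skin holds αβ T cells of the dermis, regulatory T cells around hair follicles and, in the epidermis, the γδ dendritic epidermal T cells.

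Total counts on genes ran from 20164081 in KO1 to 29491767 in KO2, and 3 counts, the one-sided limit that a count of 0 allows, stood for 0.0986 CPM (CPM being the counts scaled to library size and TMM factor) in KO2 and 0.154 CPM in KO1. Gtf2ird1 itself was higher in the libraries labelled KO, with 78.2, 70.2 and 70.7 CPM in WT1 to WT3 against 166, 162 and 144 in KO1 to KO3, so all directions are those of the labels. In log2 CPM across tested genes, r between KO3 and the WT libraries was 0.959 to 0.965, and r between KO1 or KO2 and the WT libraries was 0.918 to 0.945. KO3 thus stood closer to WT than the other KO libraries did, and values without it are given beside the results it moved most. The 15009 genes that reached 1 CPM in 3 or more libraries went into edgeR's quasi-likelihood test, and 971 of them (6.47%) had an adjusted p under 0.05.

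Of the signal chain genes, 3 lie side by side on chromosome 9 of GRCm38, within 40056 bases: Cd3g (44969572 to 44980431, minus strand), Cd3d (44981786 to 44987339, plus strand) and Cd3e (44998740 to 45009627, minus strand). Cd3g and Cd3d are read away from each other from starts 1355 bases apart. Cd247, the zeta chain gene, is on chromosome 1 (165788681 to 165877277, plus strand) and overlaps Pou2f1 and other genes on the opposite strand. Cd3e overlaps Gm48719 on the opposite strand. The strand setting of the counting is not given in the sources used here, so reads of such partners may be mixed. The 250 bases before the start of each chain gene are shown because these genes are described together below. They come from RefSeq (GRCm38.p6) and are read 5′ to 3′ on the strand of the gene, at chr9:44981536-44981785 for Cd3d, chr9:45009612-45009861 for Cd3e, chr9:44980432-44980681 for Cd3g and chr1:165788431-165788680 for Cd247. Capitals mark each match to AGGAAGT or, on the other strand, ACTTCCT, a string of the kind that ETS family factors are known to bind. It was chosen after the sequences had been read.
Cd3d: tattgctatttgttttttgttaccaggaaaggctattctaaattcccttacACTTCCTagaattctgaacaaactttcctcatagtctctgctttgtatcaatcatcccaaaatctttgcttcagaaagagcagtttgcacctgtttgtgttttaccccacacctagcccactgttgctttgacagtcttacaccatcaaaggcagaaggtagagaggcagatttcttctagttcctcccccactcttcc
Cd3e: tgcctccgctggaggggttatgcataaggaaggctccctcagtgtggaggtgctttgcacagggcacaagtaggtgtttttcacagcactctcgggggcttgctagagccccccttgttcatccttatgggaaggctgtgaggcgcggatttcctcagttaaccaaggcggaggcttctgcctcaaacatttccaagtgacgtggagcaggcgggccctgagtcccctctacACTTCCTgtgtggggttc
Cd3g: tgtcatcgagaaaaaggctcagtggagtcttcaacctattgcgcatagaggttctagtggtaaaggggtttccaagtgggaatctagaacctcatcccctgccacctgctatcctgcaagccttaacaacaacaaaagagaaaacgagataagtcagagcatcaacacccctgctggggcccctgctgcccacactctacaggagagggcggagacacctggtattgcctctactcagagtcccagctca
Cd247: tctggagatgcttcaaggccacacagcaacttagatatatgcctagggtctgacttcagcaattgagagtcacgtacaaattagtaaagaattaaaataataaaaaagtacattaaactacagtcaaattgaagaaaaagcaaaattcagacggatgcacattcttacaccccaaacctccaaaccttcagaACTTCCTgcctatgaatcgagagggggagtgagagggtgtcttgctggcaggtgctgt
Counted from the RefSeq starts, the string begins 199 bases before Cd3d, 18 before Cd3e and 58 before Cd247, and the window of Cd3g does not hold it. For Cd3e the RefSeq start differs from the position given above, so that window begins inside the gene as positioned (to 45009627). Among the 32851 promoter windows of the same length, 7.69% held it on either strand. Of the 8 genes of the receptor complex with an entry, 5 held it, the others being Lck and Ptprc. The 7.69% is a share of windows, not of genes, and Lck and Ptprc have more than 1 window. By window, 7 of the 10 of these genes held it, and the windows of Ptprc overlap and share a match. The Ptprc windows and the downstream window of Lck lie inside those genes as positioned below. No entry was used for Cd4 and Thy1. Because the string was chosen from these sequences, its share in them cannot be weighed against the 7.69%. These matches describe the letters only.

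The signal chain genes were read at low levels in every library, and none of them passed the test between genotypes. Cd3d, which encodes the delta chain of CD3, had 6, 7 and 15 counts in WT1 to WT3 and 12, 25 and 27 in KO1 to KO3. In CPM these were 0.218, 0.298 and 0.675 in WT and 0.614, 0.822 and 1.23 in KO. KO1 lay below WT3, so the genotypes overlapped. Cd3d missed the filter and has no main test. Fitted without the filter, its log2 fold change was 1.25 with an adjusted p of 0.156.

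Cd3e, the epsilon chain present in both CD3 dimers, had 43, 16 and 37 counts in WT and 19, 46 and 44 in KO, or 1.56, 0.680 and 1.66 CPM against 0.972, 1.51 and 2.01. The lowest value was in a WT library and the next in a KO library, and the ranges overlapped over most of their width. Its log2 fold change of 0.21, with a standard error of 0.40, had an adjusted p of 0.753 (edgeR quasi-likelihood test). It was -0.038 both without WT2 and without KO3.

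Cd3g, the gamma chain, had 31, 28 and 39 counts in WT and 20, 75 and 74 in KO. KO1, at 1.02 CPM, lay below every WT library (1.13, 1.19 and 1.75), while KO2 and KO3, at 2.47 and 3.38, lay above every WT library. The log2 fold change of 0.77 had a standard error of 0.42 (adjusted p = 0.250), and was 0.42 without KO3 (adjusted p = 0.429). Cd247 had 50, 41 and 66 counts in WT and 42, 71 and 86 in KO, or 1.81, 1.74 and 2.97 CPM against 2.15, 2.33 and 3.93. WT3 exceeded KO1 and KO2, and the log2 fold change of 0.37 had a standard error of 0.33 (adjusted p = 0.469). Without KO3 it was 0.06 (adjusted p = 0.894).

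**Figure D1:**
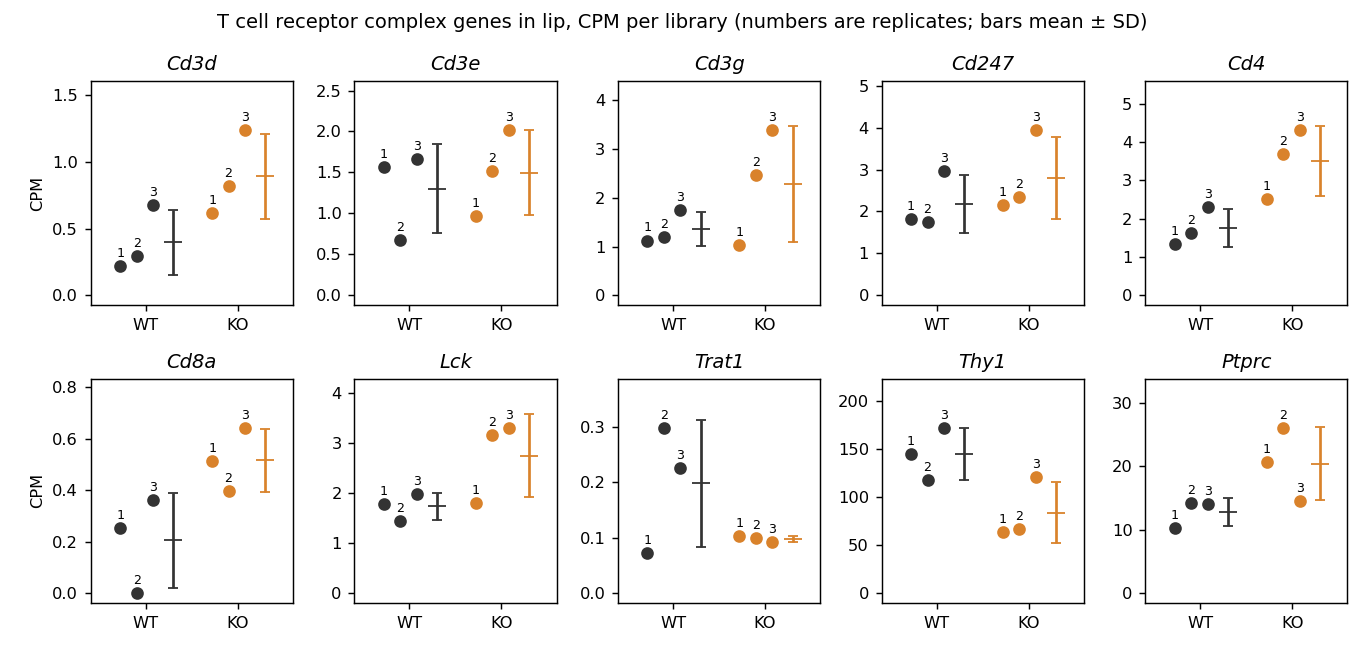
CPM of each of the 10 genes by library, with points for the libraries numbered by replicate (WT dark, KO orange) and bars for the mean ± SD of 3 libraries; each panel has its own axis. Cd4, Cd8a and Ptprc were without overlap between genotypes, Thy1 was higher in WT on average, and KO3 was the highest library for 7 of the 10 genes.

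Summed over the 4 chain genes, the level was 4.72, 3.91 and 7.06 CPM in WT1 to WT3 (5.23 ± 1.64, SD, n = 3) and 4.76, 7.13 and 10.6 in KO1 to KO3 (7.49 ± 2.92, SD, n = 3). KO1 was thus within the WT range and KO2 just above its top. Without KO3 the KO values were 4.76 and 7.13 CPM, next to the WT range of 3.91 to 7.06.

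Cd4 had the largest positive fold change among the 7 genes of the complex that were tested. It encodes the coreceptor that binds MHC class II, found on helper and regulatory T cells and, in mice, on some dendritic cells. Cd4 (chromosome 6, 124864692 to 124888221, minus strand) had 37, 38 and 51 counts in WT and 49, 112 and 94 in KO. The levels were 1.34, 1.62 and 2.29 CPM in WT (1.75 ± 0.490, SD, n = 3) and 2.51, 3.68 and 4.30 in KO (3.50 ± 0.910, SD, n = 3). Every KO library lay above every WT library, with KO1 and WT3 close together. The fitted fold was 2.01 (log2 fold change 1.01, standard error 0.29), with an unadjusted p of 0.00898 and an adjusted p of 0.0784 by the quasi-likelihood test of edgeR. edgeR's exact test (adjusted p = 0.0239) and DESeq2 (adjusted p = 0.0248) called it. The range over the 10 alternatives was 0.0239 to 0.0859, and with each library left out in turn it was 0.0531 (without KO3, log2 fold change 0.85) to 0.250.

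Cd8a encodes the alpha chain of the coreceptor for MHC class I, found on cytotoxic T cells and on some dendritic cells. The gene (chromosome 6, 71373427 to 71379173, plus strand) had 7, 0 and 8 counts in WT and 10, 12 and 14 in KO. The count of 0 in WT2 allows up to 3 counts by the one-sided limit, or 0.128 CPM, and up to 3.69 counts by the two-sided Poisson interval. The levels elsewhere were 0.254 and 0.360 CPM in WT1 and WT3, and 0.512, 0.395 and 0.640 CPM in KO. The genotypes did not overlap in CPM, but the exact Poisson interval of the 8 counts of WT3 (3.45 to 15.8, 95%, counting error only) holds all 3 KO counts. Cd8a missed the filter, and without it the log2 fold change was 1.34 with an adjusted p of 0.260.

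Lck, the Src family kinase that starts the signal, is on chromosome 4 (129548344 to 129573641, minus strand). It had 49, 34 and 44 counts in WT and 35, 96 and 72 in KO. In CPM, KO1 at 1.79 was within the WT values of 1.78, 1.45 and 1.98, and KO2 and KO3 at 3.16 and 3.29 were above them. This is the same split of the KO libraries as for Cd3g. A log2 fold change of 0.67 (standard error 0.29) was fitted, the unadjusted p was 0.0478 and the adjusted p 0.166, and without KO3 it was 0.54 (adjusted p = 0.190). Trat1, an adaptor that associates with the receptor (chromosome 16, 48730774 to 48772021, minus strand), had 2, 7 and 5 counts in WT and 2, 3 and 2 in KO, too few for the test. All KO libraries were at or below 3 counts. Without the filter its log2 fold change was -0.89 (adjusted p = 0.50), and a difference was not detectable at this depth.

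Thy1 had the highest level of the complex and was the only one of its 7 tested genes with a negative fold change. It encodes a GPI-anchored surface glycoprotein that marks mouse T cells and is also made by fibroblasts and neurons. Thy1 (chromosome 9, 44043384 to 44048579, plus strand) had 145, 118 and 172 CPM in WT (145 ± 27.0, SD, n = 3) and 64.1, 66.9 and 121 in KO (83.9 ± 31.9, SD, n = 3). KO3 lay above WT2, so the genotypes overlapped through that library alone. Thy1 had a fitted log2 fold change of -0.79 (standard error 0.26, unadjusted p = 0.0172, adjusted p = 0.101, edgeR quasi-likelihood test). Without KO3 it was -1.14 with an adjusted p of 0.00219, in a fit where 33% of all tested genes were called. The adjusted p was 0.0300 by edgeR's exact test, ranged from 0.0300 to 0.137 over the 10 alternatives, and reached 0.342 with another library left out.

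In the KO libraries, Thy1 and the summed fibroblast and nerve markers were all nearest to the WT level in KO3. Relative to the WT mean, Thy1 stood at 0.442, 0.461 and 0.832 in KO1 to KO3, the fibroblast sum at 0.394, 0.499 and 0.943, and the nerve sum at 0.566, 0.506 and 0.874. Within WT, Thy1 (0.998, 0.814 and 1.19) and the fibroblast sum (0.918, 0.907 and 1.18) were highest in WT3, while the nerve sum (1.05, 0.976 and 0.975) was not. In summed CPM the 7 fibroblast markers ran from 6530 to 8463 in WT and from 2835 to 6790 in KO, with 0 of 7 called and none at or below 3 counts in all libraries. Most of that sum came from the collagens Col1a1, Col1a2 and Col3a1. The proteoglycan genes Dcn (663, 656 and 568 CPM in KO1 to KO3) and Lum (91.5, 88.8 and 86.5) were lowest in KO3, so the list did not follow 1 pattern. The 6 nerve markers ran from 313 to 337 in WT and from 163 to 281 in KO, with 0 of 5 tested called. Macrophage markers ran from 273 to 318 and from 226 to 317. They stood at 0.768, 0.747 and 1.05 of the WT mean in KO1 to KO3. KO3 was also nearest to WT for endothelial and pericyte markers (186, 203 and 290 CPM, WT 268 to 315). The same held for mast cell (145, 159 and 192, WT 200 to 256) and skeletal muscle markers (5254, 5000 and 7799, WT 10304 to 13241). From above, KO3 was also nearest to WT for keratinocyte markers (49177, 40364 and 36483, WT 24392 to 28495). For neutrophil markers it was nearest by little (8.44, 6.48 and 6.40, WT 4.34 to 6.21). KO3 was not nearest to WT for markers of leukocytes at large, B cells, natural killer cells, or Langerhans and dendritic cells. The part of any of these cells in the Thy1 values was not tested.

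**Figure D2:**
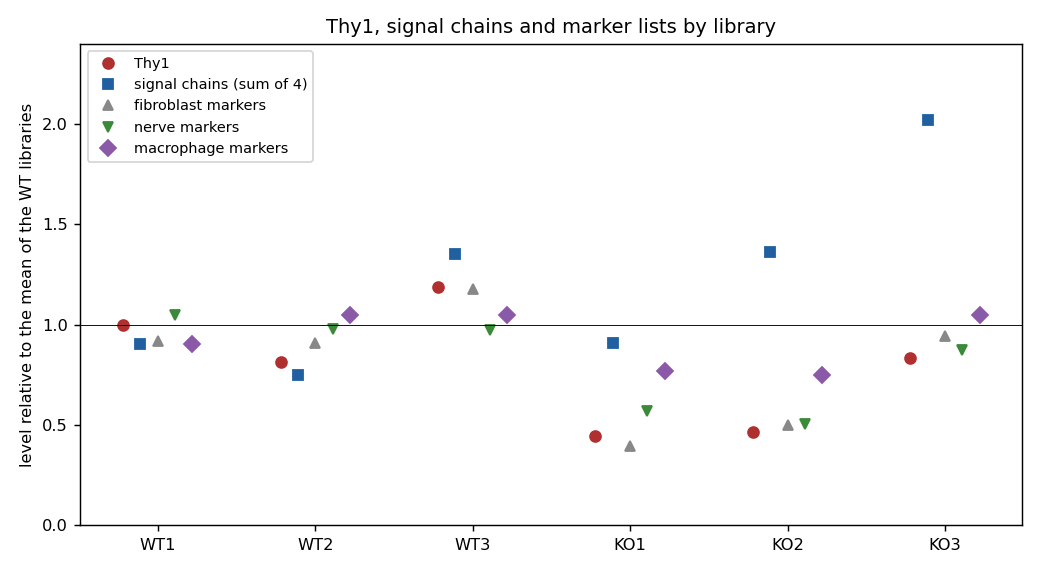
Levels by library divided by the mean of the 3 WT libraries, for Thy1, the sum of the 4 signal chain genes and the summed markers of fibroblasts, nerve and macrophages; the line at 1 is the WT mean. Thy1 and the fibroblast, nerve and macrophage markers were lowest in KO1 and KO2, and the signal chains were highest in KO3 at 2.02 times the WT mean.

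Ptprc encodes CD45, the phosphatase found on all leukocytes. It is on chromosome 1 (138062861 to 138175708, minus strand) and overlaps A130071D04Rik on the same strand. Its levels were 10.2, 14.2 and 14.0 CPM in WT (12.8 ± 2.24, SD, n = 3) and 20.7, 26.0 and 14.5 in KO (20.4 ± 5.78, SD, n = 3). The genotypes did not overlap, but KO3 lay just above WT2. Its fitted log2 fold change was 0.67 (standard error 0.24, unadjusted p = 0.0232, adjusted p = 0.115). It was 0.87 without KO3 (adjusted p = 0.00911), in a fit where 33% of all tested genes were called. DESeq2 called Ptprc with all libraries (adjusted p = 0.0480). The adjusted p ranged from 0.0480 to 0.138 over the 10 alternatives and reached 0.333 with a library left out.

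Ptprc and the signal chains were highest in different KO libraries. KO2 was the highest library for Ptprc and KO3 for Cd3d, Cd3e, Cd3g and Cd247. The summed chains came to 46.1%, 27.5% and 50.3% of the Ptprc CPM in WT1 to WT3, and to 23.0%, 27.4% and 72.9% in KO1 to KO3. The means, 41.3% ± 12.1 in WT and 41.1% ± 27.6 in KO (SD, n = 3), differed by less than the spread in either genotype. Without KO3, the KO percentages were both below the lowest WT value, but KO2 (27.4%) and WT2 (27.5%) were almost equal. The 8 markers of leukocytes at large summed to 175 to 210 CPM in WT and 172 to 282 in KO, and 0 of 8 were called.

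**Figure D3:**
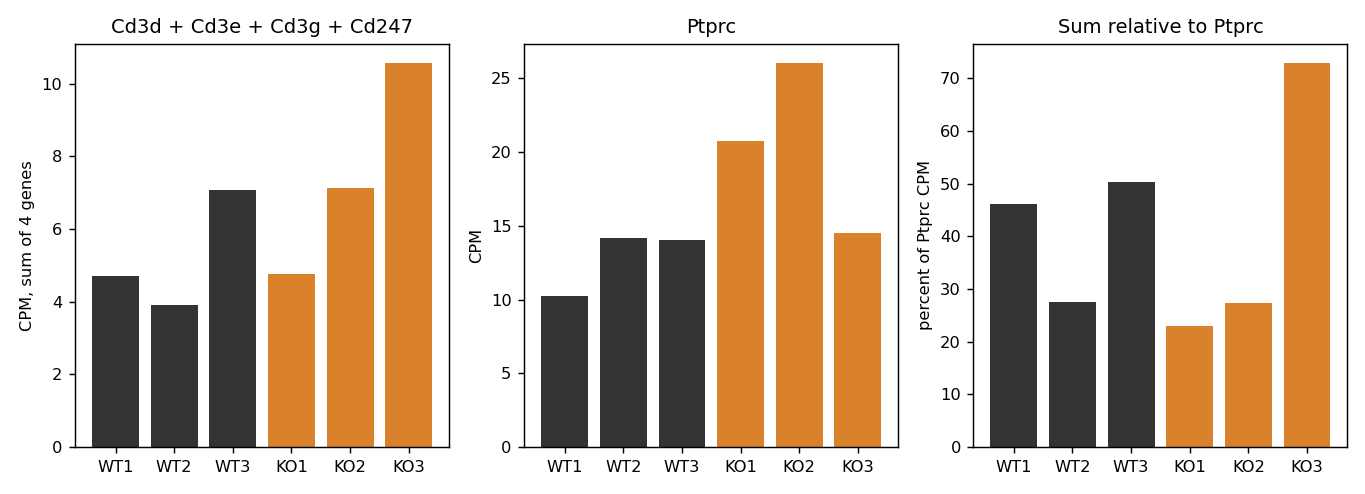
Left, summed CPM of Cd3d, Cd3e, Cd3g and Cd247; middle, CPM of Ptprc; right, that sum in percent of Ptprc, with 1 bar per library (WT dark, KO orange). KO3 had the highest chain sum (10.6 CPM) but the lowest Ptprc of the KO libraries (14.5 CPM), which gave it 72.9%.

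Among the 7 tested genes of the complex, 0 reached the threshold of 0.05 after adjustment (edgeR quasi-likelihood test), where 6.47% of all tested genes did. At an unadjusted p under 0.05 there were 4 (Cd4, Lck, Thy1 and Ptprc), against 29.6% of all tested genes. The genotypes did not overlap for 2 of the 7, Cd4 and Ptprc, against 31.5% of all tested genes. edgeR's exact test called 2 (Cd4 higher, Thy1 lower) and 14.9% of all genes, DESeq2 called 2 of 9 (Cd4 and Ptprc, both higher) and 14.2% of all genes, and limma-voom called 0, with 6.3% of all genes. With the replicate number as a block, Thy1 alone was called, lower, and 5.31% of all genes. The median log2 fold change of the 7 genes was 0.67, and that of all tested genes was -0.02. Without KO3 the median of the 7 was 0.42, and Thy1 (lower) and Ptprc (higher) were called, in a fit that called 33% of all tested genes.

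KO3 was the highest of the 6 libraries for 7 of the 10 genes (Cd3d, Cd3e, Cd3g, Cd247, Cd4, Cd8a and Lck), and for 13.5% of all tested genes. Within WT, WT3 was the highest library for 8 of the 10 genes, against 30.9% of all tested genes. Within KO, KO3 was the highest for 8, against 44.5% of all tested genes, and KO1 the lowest for 7, against 33.7% of them.

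Per kilobase of exon, Thy1 stood far above the rest. Its level was 48.4 CPM per kilobase in WT and 28.0 in KO. Next came Ptprc with 0.70 and 1.12, Lck with 0.592 and 0.938, Cd4 with 0.434 and 0.867, Cd3g with 0.415 and 0.701, and Cd247 with 0.408 and 0.526. Cd3e had 0.319 and 0.367, and Cd3d 0.219 and 0.490. At the bottom were Cd8a with 0.0563 and 0.142, and Trat1 with 0.0425 and 0.0209. From Ptprc down to Cd3d, the ranges of neighbours in this order overlapped in both genotypes. The ranges of Thy1 and Ptprc did not, nor in WT those of Cd3d and Cd8a, nor in KO those of Cd3e and Cd8a and of Cd8a and Trat1. The order depends in part on the length used: per kilobase of the longest transcript, Cd247 in WT (0.736) came before Cd4 (0.563) and Cd3g (0.534).

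**Figure D4:**
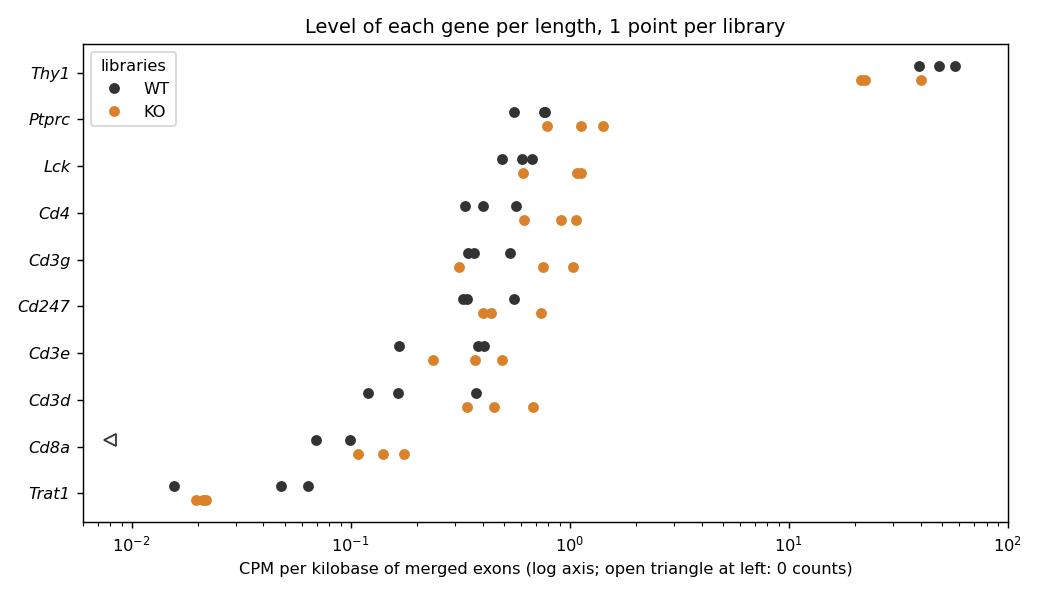
CPM per kilobase of merged exons on a log axis, with 1 point per library (WT dark, KO orange) and genes in the order of their WT mean; an open triangle marks a library with 0 counts. Thy1 (48.4 in WT) is separated from the other 9 genes, which lie near or below 1.

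The constant segments of the antigen-binding chains, which the CD3 dimers accompany, passed no test either. Of 8 listed, 6 were in the table and 2 were tested. Trbc2 had 303, 228 and 261 counts in WT and 184, 324 and 333 in KO (log2 fold change 0.12, adjusted p = 0.723, and -0.10 without KO3). Trbc1 had 1.38, 0.978 and 0.765 CPM in WT and 1.07, 1.81 and 2.1 in KO (log2 fold change 0.67, adjusted p = 0.225). The Trbc segments are near-identical copies, so the split of reads between them is uncertain. Trac, the α segment, had 10, 7 and 8 counts in WT and 5, 39 and 29 in KO, with KO1 lowest and KO2 and KO3 highest of all libraries, as for Cd3g. The γ segment Tcrg-C1 had 13, 15 and 22 counts in WT and 22, 20 and 42 in KO, Tcrg-C2 had 5, 5 and 10 against 8, 8 and 3, and Tcrg-C4 had at most 5 in any library.

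Beyond the complex, 7 lists of T cell genes held 82 genes, of which 79 were in the table and 49 were tested. By the quasi-likelihood test of edgeR, 6 were called higher and 2 lower after adjustment, against 4.38% and 2.09% of all tested genes. An unadjusted p under 0.05 was reached by 21 (29.6% of all tested genes), the genotypes did not overlap for 23 (31.5%), and the median log2 fold change was 0.37. Of the 49 genes, 6 had less than 1 CPM in every WT library and passed the filter only through KO, and 3 of these are among the 8 called. Left out in turn, single libraries changed the number of higher calls to between 0 and 6, with 0 without WT1 or without KO2. Calls over all genes also fell in those fits, to 345 of 14870 without WT1 and 226 of 14745 without KO2. The main fit called 971 of 15009. Prkcq, Icos and Il7r lost their calls without WT1, WT3 or KO2, at adjusted p values of at most 0.0775, 0.0949 and 0.0613. Tnfrsf9 lost its call without WT1 or WT2 (at most 0.0910), and Foxp3 without any of the WT libraries (0.0677 to 0.130), while neither passed the filter in the fits without a KO library. Cblb lost its call without any library but KO3 (at most 0.232). Prkcq (Gm37520), Cblb (Gm23513), Foxp3 and Tnfrsf9 overlap genes on the opposite strand.

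The list of kinases, adaptors and enzymes next to the receptor had 15 of 19 genes tested, with 0 lower and a median log2 fold change of 0.50. Prkcq, the PKC theta of the T cell synapse and also an enzyme of skeletal muscle, had 27.7, 34.0 and 29.6 CPM in WT and 94.3, 91.7 and 52.6 in KO, a log2 fold change of 1.39 with a standard error of 0.23 (adjusted p = 0.0123). Its KO values lay well above the WT values and were lowest in KO3, where the summed signal chains were highest (10.6 CPM). The 6 skeletal muscle markers summed to 10304 to 13241 CPM in WT and 5000 to 7799 in KO, with 1 of 6 called lower. The part of T cells, muscle or other cells in the Prkcq values was not tested. Of the most abundant genes of this list, Plcg1, a phospholipase found in most cells, had 120 ± 7.27 CPM in WT and 124 ± 6.42 in KO (SD, n = 3, adjusted p = 0.820). Fyn, a Src family kinase of many tissues, had 66.7 ± 1.77 and 54.5 ± 4.19 (SD, n = 3, adjusted p = 0.159).

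Among phosphatases, ligases and adaptors that limit the signal, 9 of 12 were tested, 0 were called higher and 1 lower. Cblb, an E3 ubiquitin ligase that raises the threshold for T cell activation, had 41.4, 37.4 and 38.6 CPM in WT and 25.1, 27.9 and 28.2 in KO. The groups were well apart, but the log2 fold change of -0.53 had an adjusted p of 0.0499, which 7 of the 10 alternatives moved past 0.05. The diacylglycerol kinases Dgkz and Dgka, the most abundant of this list, had adjusted p values of 0.286 and 0.223.

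Costimulatory and inhibitory receptors had 8 of 12 genes tested, with 2 higher and 0 lower. Icos, the costimulator of helper and regulatory T cells, had 13, 28 and 14 counts in WT and 50, 101 and 59 in KO, and its log2 fold change of 1.91 had a standard error of 0.35 (adjusted p = 0.0186). Tnfrsf9, which encodes the activation marker 4-1BB, had 7, 8 and 11 counts in WT and 28, 36 and 36 in KO, and its log2 fold change of 1.97 had a standard error of 0.34 (adjusted p = 0.0154). Neither gene overlapped between genotypes. Tnfrsf9 passed the filter only through the KO libraries where it was high (0.254, 0.340 and 0.495 CPM in WT), and without the filter its adjusted p was 0.00818. It shares its place with Camta1 on the opposite strand. Tnfrsf18 and Tnfrsf4, the most abundant of the list, had adjusted p values of 0.172 and 0.357.

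Transcription factors of T cell lineages had 8 of 10 genes tested. Foxp3, the factor that defines regulatory T cells, had 18, 17 and 16 counts in WT and 27, 64 and 47 in KO. Its level was 0.699 ± 0.0392 CPM in WT and 1.88 ± 0.431 in KO (SD, n = 3), without overlap. At a log2 fold change of 1.43 and a standard error of 0.28 the adjusted p was 0.0259. Foxp3, too, passed the filter only through the KO libraries, and without the filter its adjusted p was 0.0199. It shares its place with Ccdc22 and Ppp1r3f on the opposite strand. Gata3 and Bcl11b, both also active in skin epithelium, were the most abundant of the list and had adjusted p values of 0.285 and 0.198.

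Genes of skin-resident and γδ T cells had 7 of 10 tested, with 1 higher. Il7r, the interleukin-7 receptor of naive, memory and innate lymphocytes, had 2.43, 2.76 and 2.25 CPM in WT and 5.53, 6.64 and 5.62 in KO. With a log2 fold change of 1.26 and a standard error of 0.19 the adjusted p was 0.00858, and the KO values lay above every WT value by more than the spread in WT. The adaptors Tyrobp and Fcer1g, which myeloid cells also make, were the most abundant, with adjusted p values of 0.566 and 0.246. Without KO3 both were called lower (Tyrobp -0.59, adjusted p = 0.0295, and Fcer1g -0.69, adjusted p = 0.0124), in a fit that called 33% of all tested genes. Of the secreted and cytotoxic products, 10 of 11 were in the table and 0 passed the filter. Gzma, Ifng and Il2 had at most 3 counts in every library, and the most abundant, Nkg7 and Ccl5, had 8 to 22 and 1 to 17 counts.

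**Figure D5:**
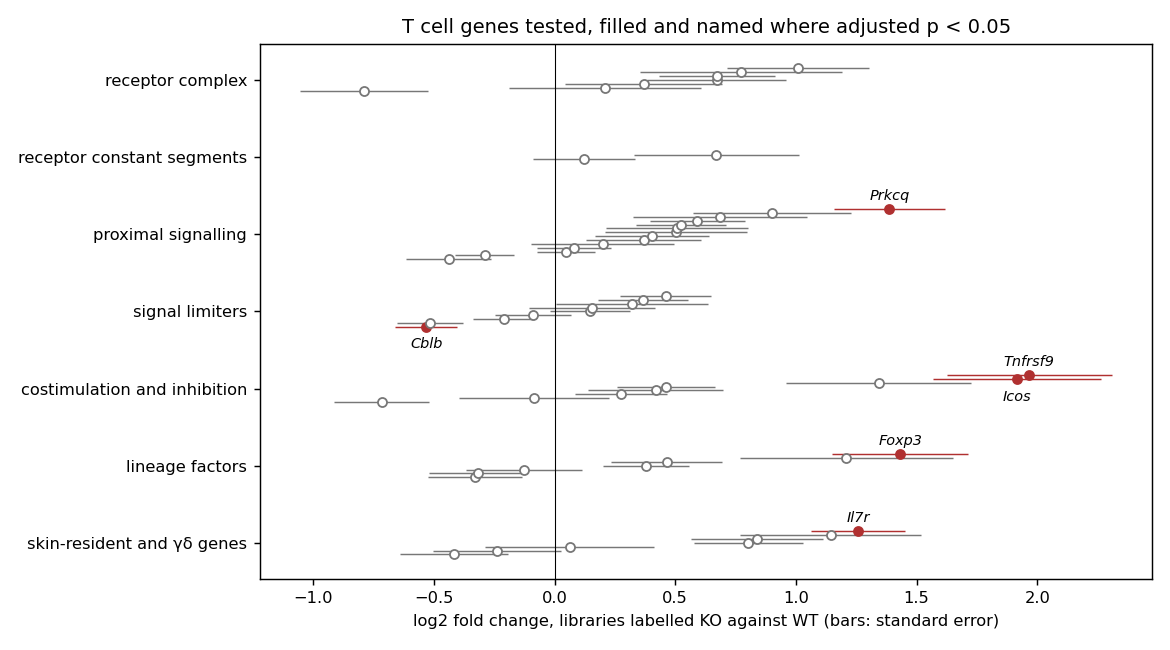
Log2 fold changes, libraries labelled KO against WT, of tested genes of the receptor complex and of 6 T cell lists, with standard errors as bars. Filled and named points passed 0.05 after adjustment by the quasi-likelihood test of edgeR: Prkcq, Icos, Tnfrsf9, Foxp3 and Il7r to the right, Cblb to the left, and 0 of the complex.

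Markers of other leukocytes differed in part between the genotypes. The 6 natural killer markers, whose cells also use Cd247 and Lck, summed to 0.675 to 0.944 CPM in WT and 1.38 to 1.83 in KO. Of these, 0 of 6 were tested, and Ncr1, Klra8 and Klre1 were at or below 3 counts in every library. Klrd1, picked out after the values were seen, made up most of that difference. It had 0.472, 0.595 and 0.405 CPM in WT and 0.972, 0.921 and 1.01 in KO. Klrb1c and Klrc1 overlapped between the genotypes. The 7 B cell markers summed to 1.71 to 2.29 and 2.56 to 5.67 CPM, with Ms4a1 and Pax5 at or below 3 counts. Their 1 tested gene, Blk, a kinase also of some γδ T cells, was called higher (log2 fold change 1.95, adjusted p = 0.0364), having passed the filter only through KO. The sums of the other 6, set apart after the values were seen, were 1.20 to 1.49 and 1.15 to 1.83 CPM and overlapped. The 7 markers of Langerhans and dendritic cells summed to 26.9 to 29.6 and 35.8 to 44.3 CPM, with 1 of 5 tested, Cd207, called higher (log2 fold change 1.81, adjusted p = 0.000932). Without Cd207, likewise set apart afterwards, the sums were 23.8 to 25.6 and 22.8 to 31.9 CPM and overlapped. The 7 keratinocyte markers summed to 24392 to 28495 and 36483 to 49177 CPM, with 0 called. Krt1 and Krt10, of the upper layers, made up most of that difference (8019 and 8715 CPM in WT, 18218 and 13574 in KO on average), while the basal Krt5 had 4888 and 4762 CPM and Krt15 970 and 758. The part of these cells in the values of Cd4, Cd8a, Cd247, Lck and Ptprc was not tested.

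The tested genes whose levels over the libraries came nearest to the mean profile of the 4 signal chains were sought. The measure was the root mean square distance of centred log2(CPM + 0.5) over the 6 libraries. Nearest were Aurka (distance 0.0459), H2-Ab1 (0.0760), Kif22 (0.0781), Ccnf (0.0835) and H2-Eb1 (0.0867). The median over 15002 genes was 0.472, but these genes were picked for the smallest distances, so they had to lie below it. The chain genes themselves lay farther from their mean profile, from 0.119 for Cd247 to 0.224 for Cd3e. Whether matches this close over 6 libraries arise by chance was not tested. Aurka, Kif22 and Ccnf act in cell division, and H2-Ab1 and H2-Eb1 encode MHC class II chains. H2-Ab1 had 122, 120 and 161 CPM in WT and 120, 179 and 245 in KO. Like the chain genes, it was highest of the WT libraries in WT3 and of the KO libraries in KO3, with KO1 at the WT level. H2-Ab1 was picked for its nearness to the chain profile, so this likeness came with the choice. Among the genes of the complex that were not part of the profile, Lck was nearest (0.162) and Thy1 farthest (0.633).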

How the data were processed

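Reads from lip RNA of 6 mice were mapped to GRCm38 by the authors with TopHat2 2.0.8 and Bowtie2 2.1.0, per the submitters' processing notes. The deposited values are raw counts per gene symbol from HTSeq, whose version and strand setting are not given in the sources used here. All 6 columns were used and 0 were left out. Totals per library, 20164081 to 29491767 counts, set the precision of low genes, and limits and Poisson intervals cover counting error only.

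The 15009 of 26814 genes that reached 1 CPM in 3 or more libraries were compared in R 4.3.3 with edgeR 4.0.16, using TMM factors, glmQLFit (legacy=FALSE) and glmQLFTest on genotype alone, with Benjamini-Hochberg adjustment over all tested genes and a threshold of 0.05. That fit also gave the standard errors. The fit was tested on simulated data with 200 changed genes. Alternatives were edgeR's exact test, DESeq2 1.42.0, limma-voom (limma 3.58.1), the older quasi-likelihood fit, other scalings and filters, a block for replicate number, a threshold of 0.1 and each library left out in turn. Levels per kilobase used the merged exons of GENCODE M21. Positions and overlaps are from the same annotation, and figures were drawn with matplotlib 3.10.9.

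The genes of the complex, the lists and the markers were chosen with earlier results of these data known. Named are all 10 genes, each list gene with an adjusted p under 0.05, the pair of highest mean CPM per list, all constant segments with counts, and the 5 genes nearest in pattern. Trdc, Tcrg-C3 and Il22 were not analysed here, and 2 called genes of the lists, though counted, are not reported singly or drawn here. The promoter string was chosen after the sequences had been read.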

Additional observations from a re-analysis of the deposited data

How the results depend on the processing

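Of the comparisons of single genes under the alternatives, 368 of 422 kept their direction and their side of the threshold, 40 lost a call, 9 gained one and 5 changed sign. The sign changes were Cd3e without WT2 and without KO3 (both -0.038; 0.49 at most with a library left out), Trbc2 without KO3 (-0.10, at most 0.32), and Plcg1 under upper-quartile scaling (-0.012) and without WT3 (-0.00038, at most 0.15), all on the log2 scale. Among the 7 tested genes of the complex, the count of higher calls went from 0 to 1 by the exact test and 1 at an adjusted p under 0.1. It was 2 by DESeq2, which tested 9 genes of the complex, and 0 to 1 with a library left out. The count of lower calls went from 0 to 1 by the exact test, and was 0 to 1 with a library left out. Of the T cell lists, 6 of 49 tested genes were higher in the main test, 10 of 49 by the exact test and 10 of 65 by DESeq2. At an adjusted p under 0.1 it was 10 of 49. With a library left out, 0 to 6 genes of the lists were higher. There 2 genes were lower, but 1 by the exact test, limma-voom, DESeq2's size factors, library size alone, no filter, or a minimum of 10 counts in each library, 4 at an adjusted p under 0.1, and 0 to 7 with a library left out, the 7 without KO3. Across all tested genes, 971 (6.47%) were called, against 2238 (14.9%) by the exact test and 2409 (14.2%) by DESeq2. At an adjusted p under 0.1 there were 2529 (16.8%). Without KO3 there were 4891 (33%), and without KO2 there were 226 of 14745. The summed WT level of the 4 signal chains was 1.36 CPM per kilobase of merged exons and 2.03 with the longest transcript. For these lost and gained calls the cause was not tested.

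Same-numbered WT and KO libraries deviated together with r = -0.19, 0.31 and 0.33. Differently numbered pairs ran from r = -0.52 (WT2 with KO3) to 0.42 (WT2 with KO1), so the numbers were not taken to pair the mice. With the replicate number as a block, 797 genes were called. In the complex 1 gene, Thy1, was then lower (adjusted p = 0.0427) and 0 were higher, and of the T cell lists 4 were higher and 0 lower. Counts under 10 in Cd8a, Trat1 and, in WT, Cd3d limit what can be said of these genes at this depth.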

Other observations

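The variable segments of the antigen-binding chains, which the tested lists do not hold, had few counts. Summed over 44 α symbols they had 8, 6 and 8 counts in WT1 to WT3 and 14, 20 and 12 in KO1 to KO3. The 36 β symbols had 37, 20 and 32 in WT and 35, 53 and 46 in KO. The 6 γ symbols had 6, 16 and 9 in WT and 17, 11 and 29 in KO, and the 6 δ symbols had 24, 20 and 16 in WT and 34, 23 and 71 in KO. In CPM, γ and δ segments were highest in KO3 (1.33 and 3.25), β segments also in KO3 (2.1) and α segments in KO1 (0.716).

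Among these, 3 γδ segments were picked out after their values were seen. Trdv4, the δ segment used by the γδ T cells of epidermis and of dermis, had 15, 17 and 11 counts in WT and 24, 14 and 55 in KO. Tcrg-V6, the γ segment of dermal and mucosal cells, had 0, 1 and 3 in WT and 9, 3 and 18 in KO. Tcrg-V5, the γ segment of dendritic epidermal T cells, had 5, 11 and 5 in WT and 3, 2 and 2 in KO. None passed the filter, and without it the adjusted p values were 0.214, 0.106 and 0.216.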
